A study of Sordaria macrospora with 16 samples.

Results

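A stretch of chromosome 2 of the filamentous ascomycete *Sordaria macrospora*, chr2:687054-1261887 (574834 bp), was described through the chromatin immunoprecipitation peaks that fall in it. The segment goes by the name of a duplicated segment in Δasf1, in which the gene of the histone chaperone ASF1 is deleted. The lists hold no copy number, and for the internal part their values go against that name in 1 of 2 replicates, so it is called the segment. The paper on this mutant reports the duplication from Hi-C, genome sequencing and PCR across its junctions. The paper describes it as split, with a middle region that is not duplicated. The internal values were unlike the outer ones in Δasf1 replicate 2 and like them in Δasf1 replicate 1. The members were selected on measured values, namely the covered share of the lists and the background of their peaks. Members were all peaks whose midpoint lies in the segment, 785 of 45528 peaks in 8 deposited lists. The segment was divided into a left part (to position 913394), an internal part (to 1077034) and a right part, and set beside flanks of the same length, chr2:112220-687053 and chr2:1261888-1836721.

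The groups were H3K27me3 in Δasf1, H3K27me3 in the wild type, H3 in Δasf1 and H3 in the wild type, with 2 biological replicates each. H3K27me3 is histone H3 trimethylated at lysine 27, and the H3 antibody detects the histone whether or not it carries the mark. Cultures of both strains were grown at 27°C, for 3 days in Δasf1 and 2 days in the wild type, and fixed chromatin was cut with micrococcal nuclease (230 U/ml, 105 min). Strain and growth time cannot be told apart in this design. Whole mycelium was used, so a peak stands for a mixture of cells.

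ASF1 carries H3-H4 dimers to and from DNA during replication, transcription and repair, and hands them to other chaperones such as CAF-1. H3K27me3 is laid down by Polycomb repressive complex 2 and marks silenced chromatin in many fungi, often over long domains. A broad-peak caller reports stretches where precipitated reads exceed a local background. The depth of coverage on a stretch, and with it the smallest excess that can be called, also depends on how many copies of that stretch a genome holds.

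The segment was chosen with results of these lists in view. A scan for windows where Δasf1 peaks covered more than wild-type peaks had pointed to it, and its edges were set where the implied background of H3 peaks in Δasf1 replicate 2 stepped up or down. The difference between strains inside the segment is therefore a description, given without a test. The permutation test was used only for the flanks. The lists hold no read counts, so the depth of each library is unknown.

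Each list gives for every peak a fold enrichment over the caller's local background, and a p-value. From both, the background under each peak was calculated back, as the Poisson mean at which that fold gives that p-value, and expressed as a log2 value relative to the median of its list, where 0 is typical of the list and 1 is a doubling. For H3K27me3 in Δasf1 the median log2 background was 0.81 and 0.96 in the left part (replicates 1 and 2) and 0.86 and 0.93 in the right part. In the wild type it was 0.030 and 0.088 in the left part and -0.027 and -0.089 in the right part. H3 gave nearly the same values, 0.82 and 0.95 in the left part and 0.86 and 0.93 in the right part of Δasf1, against 0.0085 and -0.0010 in the left part and 0.013 and 0.0038 in the right part of the wild type. In the flanks all 8 lists lay between -0.0024 and 0.061. The median background of the outer parts was thus raised in every Δasf1 list and in no wild-type list, and that of the flanks was not. For H3 in Δasf1 replicate 2 this follows from how the edges were set.

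The internal part set the Δasf1 replicates apart. Its log2 background was 0.77 for H3K27me3 and 0.78 for H3 in Δasf1 replicate 1, but -0.024 for H3K27me3 and -0.056 for H3 in Δasf1 replicate 2. In the wild type it lay between -0.086 and -0.0024. Both libraries of replicate 1 therefore had a raised background across the whole segment, whereas both libraries of replicate 2 had it in the outer parts only. For H3 in Δasf1 replicate 2, the list used to set the edges, this may follow from how they were set. The labels do not say whether the replicates came from the same isolate of Δasf1, and a group mean over the whole segment or its internal part averages these unlike replicates. Values are accordingly given by replicate.

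**Figure D1:**
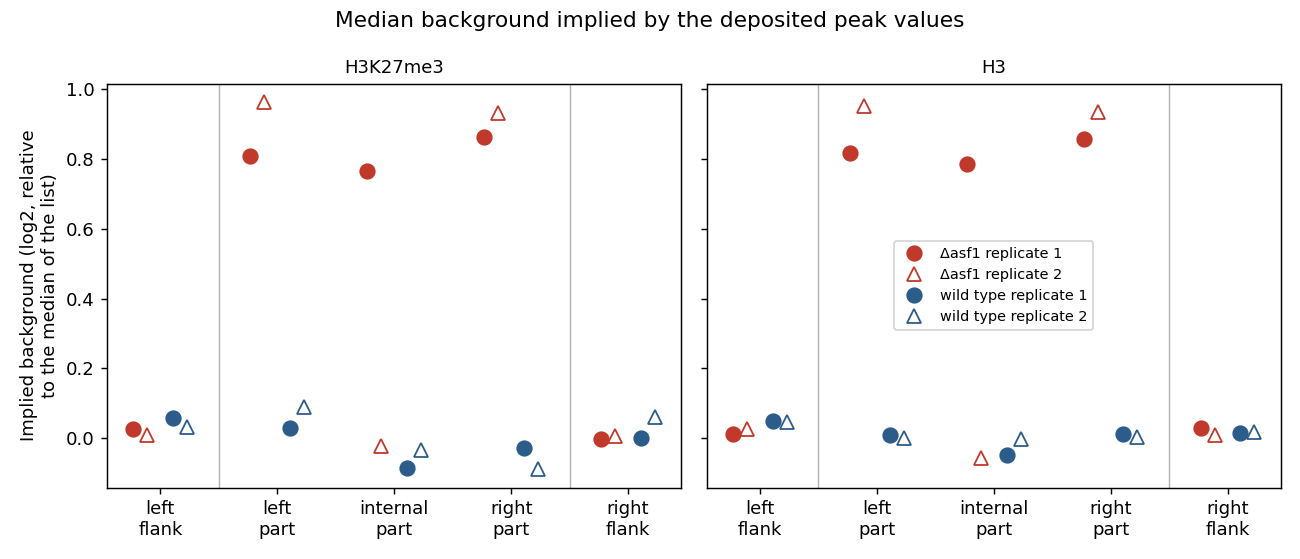
Median of the background calculated back from fold enrichment and p-value of each peak, as log2 relative to the median of the same list (y axis), for the left flank, the left, internal and right parts of the segment and the right flank (x axis). Filled circles are replicate 1 and open triangles replicate 2, red Δasf1 and blue wild type. Δasf1 lists lie near 0.8 to 1.0 in the outer parts, and in the internal part replicate 1 is at 0.77 (H3K27me3) and 0.78 (H3) while replicate 2 is at -0.024 and -0.056.

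The change of background at the edges took place between neighbouring peaks. In the H3 list of Δasf1 replicate 2, which was used to set the edges, the first peak inside the left edge, chr2:687054-689054, had a log2 background of 0.91 and the last one outside, chr2:677409-678388, had 0.19. The last peak inside the right edge, chr2:1260860-1261887, had 1.11 and the first one outside, chr2:1269090-1270292, had -0.039. The lists that were not used to set the edges showed the same steps. In the H3K27me3 list of Δasf1 replicate 1 the values were 0.86 inside and 0.17 outside at the left edge, and 0.96 inside and -0.0021 outside at the right edge. In that of Δasf1 replicate 2 the last peak counted inside the right edge, chr2:1258823-1264717, ran past the edge. It had 1.00, and the first peak outside had 0.020. Wild-type H3 peaks at the same edges had values between -0.035 and 0.077. Single wild-type H3K27me3 peaks there scattered more, between -0.21 and 0.38, and in replicate 2 the right edge had -0.21 inside and 0.38 outside, so that a step between 2 single peaks is not by itself a mark of the segment.

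H3K27me3 peaks were more numerous and covered more of the segment in Δasf1. There were 119 and 99 peaks in Δasf1, against 73 and 64 in the wild type. They covered 42.7% and 42.4% of the segment in Δasf1, against 14.7% and 15.6% in the wild type, and the group means differed by 27.43 percentage points. The lists of the 2 strains did not overlap. Over the whole genome, H3K27me3 peaks covered 22.2% and 24.9% in Δasf1, against 17.7% and 18.3% in the wild type.

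In the outer parts both Δasf1 lists exceeded both wild-type lists. In the left part 41.1% and 54.7% was covered in Δasf1, against 18.9% and 14.5% in the wild type. In the right part it was 38.4% and 46.0% in Δasf1, against 9.05% and 10.1% in the wild type. The internal part was covered to 49.8% in Δasf1 replicate 1 and 21.3% in Δasf1 replicate 2, against 15.2% and 23.3% in the wild type. Coverage of the internal part thus exceeded that of the wild type in the replicate whose background was raised there and lay within the wild-type range in the other. Over both outer parts the group means differed by 31.9 points, with 25.4 within replicate 1 and 38.3 within replicate 2.

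H3 peaks, which do not depend on the mark, were about as numerous in both strains, with 116 and 104 peaks in Δasf1, against 107 and 103 in the wild type. They covered 45.0% and 36.7% of the segment in Δasf1, against 21.4% and 31.7% in the wild type, a difference of 14.32 points. The H3 groups did not overlap either, but Δasf1 replicate 2 and wild type replicate 2 were close. Over the whole genome, however, H3 peaks covered 24.3% and 14.7% in Δasf1, against 20.8% and 31.2% in the wild type. The whole H3 lists held 6358 and 4401 peaks in Δasf1, against 6367 and 6525 in the wild type. In the left part coverage was 45.1% and 46.7% in Δasf1, against 24.8% and 38.8% in the wild type, and in the right part 40.5% and 39.4% in Δasf1, against 22.6% and 26.3% in the wild type. In the internal part it was 49.99% in Δasf1 replicate 1 and 19.95% in Δasf1 replicate 2, against 15.4% and 27.9% in the wild type.

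**Figure D2:**
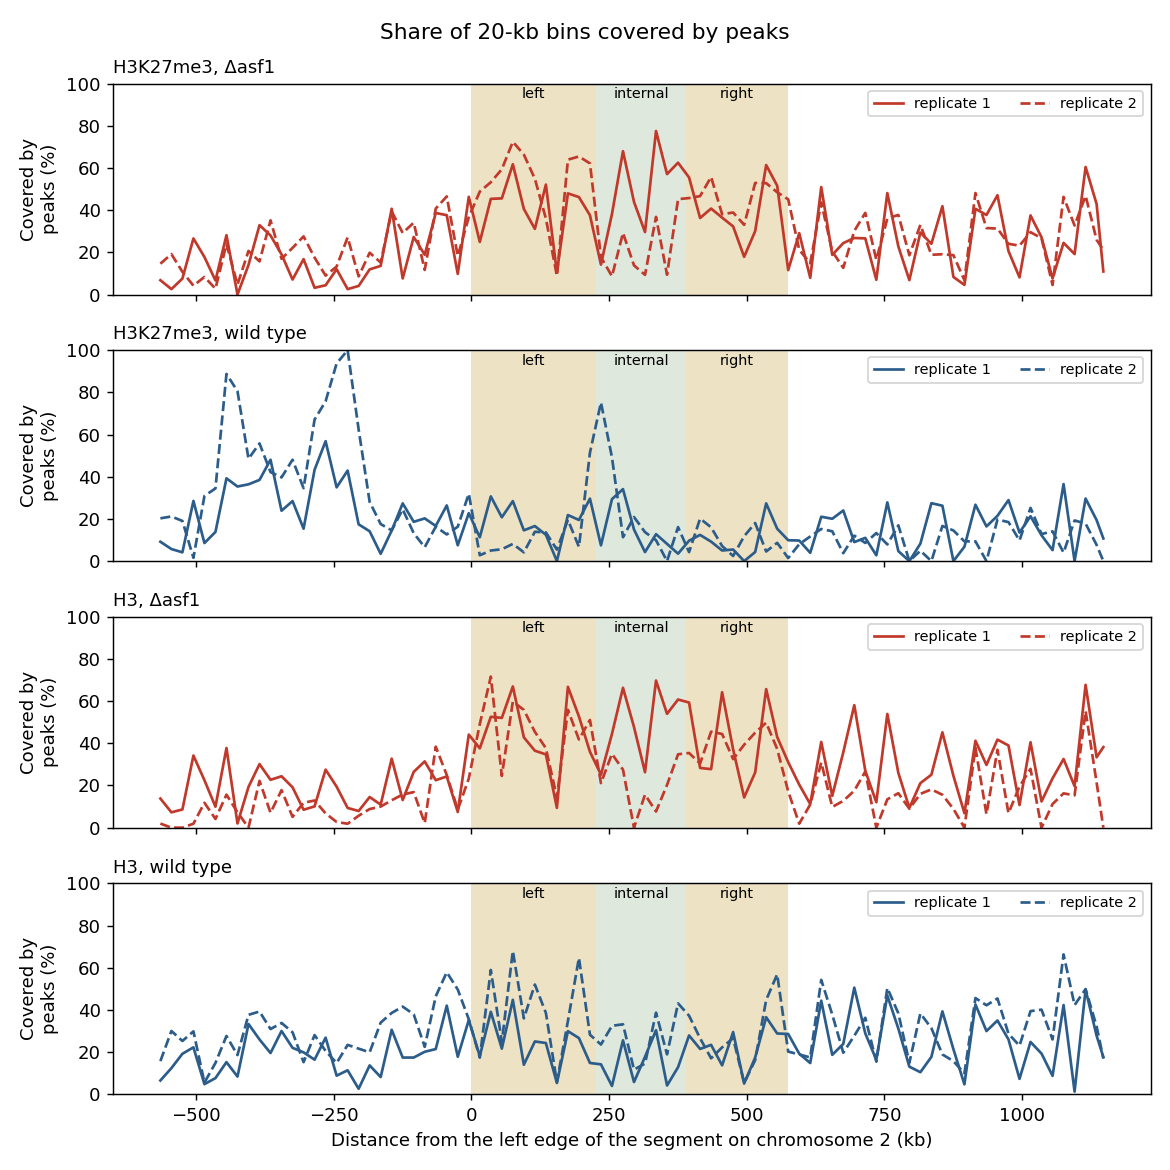
Share of each 20-kb bin covered by peaks (y axis, %) against the distance from the left edge of the segment (x axis, kb), for H3K27me3 and H3 in Δasf1 (red) and the wild type (blue), with replicate 1 solid and replicate 2 dashed. The shading marks the left, internal and right parts. H3K27me3 coverage of the outer parts is higher in both Δasf1 lists, and the internal part as a whole is covered to 49.8% in Δasf1 replicate 1 but to 21.3% in Δasf1 replicate 2, with some bins of that replicate above and others below the wild type.

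The flanks went opposite ways for H3K27me3. The left flank was covered to 16.4% and 19.9% in Δasf1, against 24.2% and 39.1% in the wild type, and the right flank to 26.3% and 27.3% in Δasf1, against 15.4% and 11.02% in the wild type. Neither pair of groups overlapped, and the group means differed by -13.5 points on the left and 13.6 points on the right. On the right the excess of Δasf1 therefore did not end at the edge of the raised background. In some bins outside the left edge, picked after their values had been seen, Δasf1 was also higher. At -64.8 kb from that edge a 20-kb bin had 38.7% and 40.7% in Δasf1, against 16.7% and 16.3% in the wild type. At -24.8 kb it was 9.79% and 18.2% in Δasf1, against 7.51% and 16.3% in the wild type. Farther out, at -224.8 kb, it was 2.56% and 27.1% in Δasf1, against 42.9% and 100% in the wild type. Both flanks together were covered by H3K27me3 peaks to 21.3% and 23.6% in Δasf1, against 19.8% and 25.1% in the wild type, a difference of 0.048 points (exact two-sided permutation test, p = 1, n = 2 each). This sum cancels the opposite sides and has no stable direction. It was negative under 6 other settings on peaks, from -0.325 to -4.46 points, and 11.25 points with flanks of 200 kb (exact permutation p = 0.333). For H3 it was 24.03% and 13.07% in Δasf1, against 21.76% and 31.03% in the wild type, a difference of -7.84 points (exact two-sided permutation test, p = 0.667, n = 2 each), but 0.208 points for the upper 50% of peaks by q-value and 2.35 points above the median fold of the antibody. With 2 lists against 2 the smallest possible p is 0.333, so this test could not have shown a difference.

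Peaks in the segment were wide in Δasf1. The median H3K27me3 peak measured 1509 and 1782 bp in Δasf1, against 956 and 963 bp in the wild type, and the widest reached 10886 bp in Δasf1 and 7041 bp in the wild type. Peaks of 3 kb or more numbered 25 and 33 in Δasf1, against 3 and 4 in the wild type. Such peaks made up 8.97% and 11.7% of the whole Δasf1 lists and 8.38% and 7.16% of the whole wild-type lists. In Δasf1 replicate 2 the median was 2559 bp in the left part and 2226.5 bp in the right part, but 1031 bp in the internal part, close to the wild-type medians there of 874 and 972.5 bp. In Δasf1 replicate 1 the internal peaks were widest, with a median of 1797 bp. The ratio of the mean of these medians, Δasf1 over wild type, was 1.71 over the segment, but 1.03 and 1.01 among peaks that reached the median fold enrichment of the antibody or of their own list.

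H3 peaks of the segment were also wider in Δasf1. Their median width was 1644 and 1592 bp in Δasf1, against 919 and 1240 bp in the wild type. The H3 lists held 28 and 20 segment peaks of 3 kb or more in Δasf1, against 5 and 19 in the wild type, where such peaks made up 10.5% and 5.75% of the whole Δasf1 lists and 6.17% and 17.3% of the whole wild-type lists. Within replicate 2 the counts of wide H3 peaks, 20 and 19, hardly differed, although wild type replicate 2 had far more wide peaks genome-wide.

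**Figure D3:**
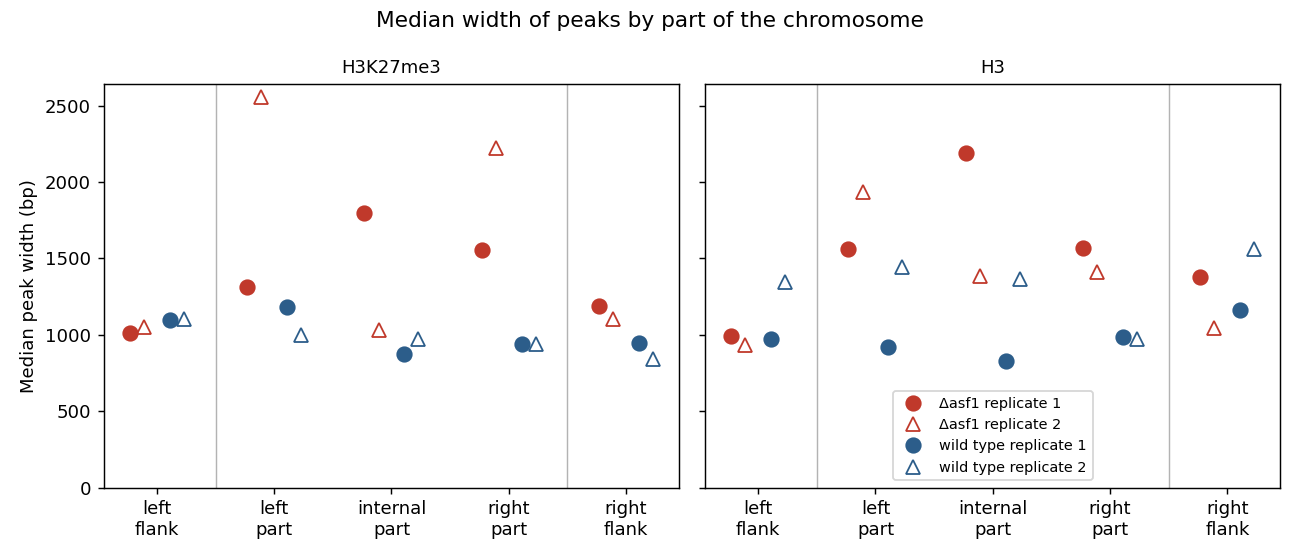
Median peak width (y axis, bp) in the left flank, the 3 parts of the segment and the right flank (x axis) for H3K27me3 and H3. Filled circles are replicate 1 and open triangles replicate 2, red Δasf1 and blue wild type. The widest median, 2559 bp, belongs to H3K27me3 peaks of the left part in Δasf1 replicate 2, and the same list has a median of 1031 bp in the internal part.

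Fold enrichments in the segment were low in Δasf1. The median fold of H3K27me3 segment peaks was 1.36 and 1.29 in Δasf1, against 1.43 and 1.32 over the same whole lists. In the wild type the segment medians were 1.39 and 1.32, against 1.37 and 1.32 over the whole lists. For H3 the segment medians were 1.33 and 1.31 in Δasf1, against 1.39 and 1.35 over the whole lists, and 1.41 and 1.28 in the wild type, against 1.41 and 1.28. Taken over the whole segment, peaks thus stood below the level of their list in Δasf1 and at or slightly off that level in the wild type. The internal part of Δasf1 replicate 2 was an exception. Its median fold was 1.324 for H3K27me3 and 1.359 for H3, against 1.321 and 1.350 over the whole lists.

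The weakest peak of each Δasf1 list lay in the segment. The lowest fold enrichment there was 1.25 and 1.18 for H3K27me3 and 1.22 and 1.21 for H3, and each of these values was also the lowest of its whole list. In the flanks of the same lists no peak was below 1.30 and 1.24 for H3K27me3 or 1.28 and 1.25 for H3. Wild-type peaks of the segment went down to 1.27 and 1.22 (H3K27me3) or 1.32 and 1.20 (H3), and none of these was the weakest peak of its list.

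Only a minority of the segment peaks of Δasf1 reached the median fold enrichment of their own list. For H3K27me3 these were 25 of 119 (21.0%) and 24 of 99 (24.2%) in Δasf1, and 46 of 73 (63.0%) and 30 of 64 (46.9%) in the wild type. For H3 they were 28 of 116 (24.1%) and 24 of 104 (23.1%) in Δasf1, and 51 of 107 (47.7%) and 49 of 103 (47.6%) in the wild type. In the internal part of Δasf1 replicate 2, 13 of 24 H3K27me3 peaks and 11 of 21 H3 peaks reached that median. In Δasf1 replicate 1 it was 7 of 34 and 7 of 30 there. By the choice of the median, about 50% of every whole list reaches it. Limited to these stronger peaks, a setting chosen after the data had been seen, the share of the segment covered was 8.24% and 7.14% in Δasf1, against 9.48% and 10.1% in the wild type for H3K27me3, a difference of -2.11 points, and the difference for H3 was -5.74 points.

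With a single threshold for all lists of an antibody, its median fold, the replicates disagreed. H3K27me3 peaks then covered 24.8% of the segment in Δasf1 replicate 1 and 2.54% in Δasf1 replicate 2, against 10.4% and 9.06% in the wild type, and the difference of the means was 3.94 points. H3 peaks covered 17.4% and 5.78% in Δasf1, against 18.4% and 2.12% in the wild type, a difference of 1.31 points. Limits on significance kept the excess. It was 25.40 points at a common q-value, 24.28 for the upper 50% of peaks by q-value and 25.53 with equal numbers of peaks for H3K27me3, and 15.5, 16.8 and 18.9 points for H3. The excess of coverage was thus present among peaks of high significance and was not seen among those of high fold enrichment for their list. Fold enrichment is itself taken over the local background, which was raised in Δasf1, so the limits on fold are not independent of it. Nor are the limits on significance, since the same fold over a higher background gives a smaller p-value. Equal numbers of peaks were also picked by p-value. For H3K27me3 in Δasf1 the median −log10 q was 4.55 and 2.67 in the segment, against 3.84 and 1.86 in the flanks. The median folds were 1.36 and 1.29 in the segment, against 1.43 and 1.32 in the flanks. The part of the raised background in the excess was not tested.

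**Figure D4:**
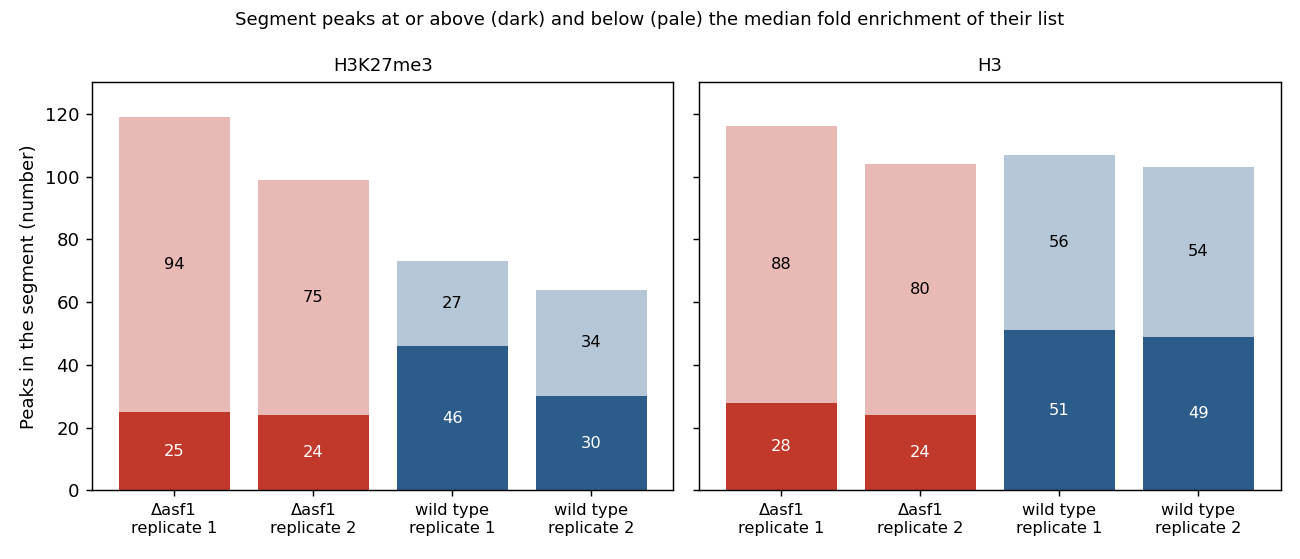
Number of segment peaks per list (y axis) at or above the median fold enrichment of their own list (dark) and below it (pale), for H3K27me3 and H3 in Δasf1 (red) and the wild type (blue). The H3K27me3 lists of Δasf1 hold 25 and 24 peaks in the dark class, against 46 and 30 in the wild type. The pale class has 94 and 75 peaks in Δasf1, against 27 and 34 in the wild type.

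Peaks new to Δasf1 were those that overlapped no wild-type peak of the same antibody in either wild-type list. For H3K27me3 these were 40 of 119 segment peaks (33.6%) in replicate 1 and 30 of 99 (30.3%) in replicate 2, beside a genome-wide share of 22.6% and 23.7%. The right part had the most, 17 of 39 and 14 of 34, followed by the left part with 14 of 46 and 13 of 41. The internal part had 9 of 34 in replicate 1 and 3 of 24 in replicate 2. In the left flank 9 of 65 and 10 of 79 were new, and in the right flank 18 of 93 and 29 of 102.

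Of the 40 new peaks of replicate 1, 29 overlapped a peak of replicate 2, and of the 30 of replicate 2, 21 overlapped a peak of replicate 1. Over the whole lists 56.6% and 49.3% of new peaks did so. In the internal part this held for only 1 of 9 in replicate 1 and 2 of 3 in replicate 2. New peaks were narrower than the others, with a median of 1035 and 1199.5 bp, against 1868 and 2455 bp for segment peaks that met a wild-type peak. Over the whole lists it was 700 and 874 bp, against 1231 and 1349.5 bp. A wide peak is less likely to miss every wild-type peak, so the definition itself favours narrow ones. The median fold enrichment of new segment peaks was 1.33 and 1.25, against 1.38 and 1.30. Over the whole lists it was 1.40 and 1.31, against 1.43 and 1.33. New segment peaks summed to 55.0 and 49.5 kb, whereas all H3K27me3 peaks together covered 245.6 and 243.7 kb of the segment in Δasf1, against 84.4 and 89.5 kb in the wild type. The larger part of the added length thus belonged to wide peaks that also met a wild-type peak.

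New H3K27me3 peaks were also compared with H3. In Δasf1, 31 of 40 (77.5%) and 24 of 30 (80.0%) overlapped an H3 peak of the same replicate, beside 67.8% and 30.7% of new peaks genome-wide. Wild-type H3 peaks were present at 28 (70.0%) and 18 (60.0%) of them, beside 81.7% and 71.2% genome-wide. Among segment peaks that were not new, 93.7% and 98.6% lay on a wild-type H3 peak, beside 95.6% and 92.8% genome-wide. A gene was overlapped by 34 of 40 and 28 of 30 new peaks, beside 89.9% and 81.9% genome-wide. H3 itself gave few new peaks, 11 of 116 (9.48%) and 14 of 104 (13.5%), beside 7.80% and 9.63% over the whole lists. The mean number per Δasf1 list was 35 for H3K27me3 and 60 when wild type replicate 1 was left out, and 12.5 for H3 and 26 when wild type replicate 2 was left out.

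When the 4 lists of an antibody were merged into regions, the segment held 109 H3K27me3 regions, of which 34 (31.2%) had peaks in all lists, beside 22.4% genome-wide. Regions with peaks in both Δasf1 lists and no wild-type list numbered 16 (14.7%, beside 7.41% genome-wide), of which 7 were in the left, 1 in the internal and 8 in the right part. No region of the segment was found in the wild type alone (1.91% genome-wide). For H3 there were 113 regions, of which 71 (62.8%, beside 35.1%) had peaks in all lists, 5 (4.42%, beside 1.06%) in Δasf1 only and 0 in the wild type only (4.18%). Since the segment was chosen for more coverage in Δasf1, these counts repeat the choice.

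The new H3K27me3 regions with the highest fold enrichment in their weaker replicate measured 1329 to 5459 bp. In the right part the first was chr2:1159765-1161093, within SMAC4_04378, covered to 96.8% and 95.0% in Δasf1 with folds of 1.29 and 1.29. The second, chr2:1139599-1144375, spanned SMAC4_04374 (60S ribosomal protein L20, a structural protein of the large ribosomal subunit) and SMAC4_04375 (an F-box protein, a family that selects substrates for ubiquitination). Its folds were 1.49 and 1.29. The third, chr2:1162802-1165376, lay over SMAC4_04379, which has an RTA1 domain found in fungal membrane proteins.

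In the left part the new H3K27me3 regions were chr2:828741-830196 in SMAC4_05587, with folds of 1.32 and 1.29, chr2:801457-806915 and chr2:859793-863331. The second of these spanned SMAC4_05576, a major facilitator transporter that moves small molecules across membranes, and SMAC4_05577, named phosphoribulokinase or uridine kinase. The third lay over SMAC4_05594, whose product is unknown. The single new region of the internal part, chr2:1044516-1049033 at SMAC4_07829, was covered to 100% in Δasf1 replicate 1 and to 15.3% in Δasf1 replicate 2. The region of SMAC4_05587 was also new for H3 (chr2:828863-830173, folds of 1.23 and 1.29), as was that of SMAC4_07829 (chr2:1045314-1047173, folds of 1.38 and 1.30).

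Wild-type peaks of the segment were next followed into Δasf1. For H3K27me3, 67 of 73 (91.8%) and 50 of 64 (78.1%) wild-type segment peaks overlapped a peak in both Δasf1 lists, beside 67.6% and 47.6% over the whole lists. For H3 it was 84 of 107 (78.5%) and 83 of 103 (80.6%), beside 48.0% and 46.6%. Since the segment was chosen for more coverage in Δasf1, a kept share above that of the whole lists follows in part from the choice. The same holds for the widths and gene counts that follow. Of the wild-type H3K27me3 peaks, 73 of 73 and 61 of 64 overlapped a peak in at least 1 Δasf1 list. The 3 that met none were all in the internal part. Under stricter limits on both strains the share kept in both Δasf1 lists was smaller, with a mean of 85.0% becoming 48.1% for the upper 50% by q-value and 14.4% or 19.2% under the fold limits for H3K27me3, and 79.5% becoming 38.2%, and 25.1% or 16.0%, for H3.

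In place, H3K27me3 peaks were wider in Δasf1. Compared were wild-type peaks that met a Δasf1 peak of the same replicate, for H3K27me3 72 of 73 and 52 of 64. Each was set against the widest such Δasf1 peak, and for fold against the highest. A long Δasf1 peak can therefore count more than once. The median ratio of the width of the Δasf1 peak to that of the wild-type peak it overlapped, within a replicate, was 2.00 and 2.42, against 1.11 and 1.32 over the whole lists. It was 1.71 and 3.69 in the left part and 2.05 and 2.60 in the right part, but 2.26 and 0.74 in the internal part. For H3 the ratios in the segment were 1.99 and 1.08, against 1.08 and 0.71 over the whole lists. Their fold enrichments differed little, with a median difference of Δasf1 minus wild type of 0.014 and -0.032 for H3K27me3, against 0.066 and 0.0083 over the whole lists, and of -0.070 and 0.017 for H3, against -0.014 and 0.063. Relative to its list, the fold at these peaks was thus lower in all 4 comparisons, while the width was larger.

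The longest stretch with H3K27me3 peaks in every list, chr2:1016236-1027206 (10971 bp), lay over SMAC4_07834 and SMAC4_07833 in the internal part. It was covered to 99.2% by 1 peak in Δasf1 replicate 1 and to 52.6% by 3 peaks in Δasf1 replicate 2, against 14.3% by 3 peaks and 5.28% by 1 peak in the wild type. At chr2:764656-773460, which holds the genes for dihydroorotase (SMAC4_05564, an enzyme of pyrimidine synthesis), a major facilitator transporter (SMAC4_05565) and the replication checkpoint mediator MRC1 (SMAC4_05566), 82.1% and 100% was covered in Δasf1, against 38.1% and 11.7% in the wild type. The folds of this region were 1.46 and 1.32 in Δasf1, against 1.44 and 1.31 in the wild type. Here 3 and 2 narrow peaks of the wild type stood beside 2 and 1 long peaks of Δasf1 at nearly the same enrichment. The other long regions, chr2:1203966-1213038, chr2:1050536-1059151 and chr2:867721-876324, were likewise covered more in both Δasf1 lists, with coverage between 48.8% and 100% in Δasf1 and between 8.17% and 43.4% in the wild type. All these regions were picked for their merged length, which a long Δasf1 peak can itself set. Higher coverage in Δasf1 thus follows in part from the choice.

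One stretch, picked out after its values had been seen, stood out in a single wild-type list. Around the border of the left and internal parts, the 20-kb bin centred 235.166 kb from the left edge was covered by H3K27me3 peaks to 14.2% and 17.8% in Δasf1, and to 7.47% in wild type replicate 1 and 75.2% in wild type replicate 2. SMAC4_09744, an S-adenosylmethionine-dependent methyltransferase in this stretch, was covered to 100% in wild type replicate 2 and to 0% in the other 3 H3K27me3 lists.

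The annotation places 152 genes in the segment, 147 protein-coding and 5 tRNA genes, and they take up 60.4% of its length. Of the protein-coding genes, 63 lie in the left, 35 in the internal and 49 in the right part. Product names came from the paper's list of genes detected in the duplication, which hardly covers the internal part. It gave no name for 34 of 35 internal genes, 6 of 63 in the left and 1 of 49 in the right part, so the gene groups described here belong almost wholly to the outer parts. Of the H3K27me3 peak length in the segment 76.3% and 74.6% lay in genes in Δasf1, against 75.6% and 60.4% in the wild type.

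H3K27me3 peaks covered at least 50% of the length of 79 and 82 of the 147 genes in Δasf1, against 22 and 20 in the wild type. The genome-wide shares of such genes were 28.4% and 30.9% in Δasf1, against 21.7% and 20.3% in the wild type. In both lists of a strain this held for 57 genes in Δasf1 and 4 in the wild type, where 17.0% and 8.35% of all genes did so. For H3 the numbers were 81 and 68 in Δasf1, against 39 and 58 in the wild type, beside genome-wide shares of 31.6% and 17.1% in Δasf1, against 26.3% and 40.6% in the wild type. In both lists it was 48 genes in Δasf1 and 29 in the wild type, beside 11.2% and 20.4% of all genes. Averaged over the 2 lists of a strain, H3K27me3 coverage was higher in Δasf1 for 126 of 147 genes and lower for 10, and H3 coverage was higher for 107 and lower for 29. Over all genes of the genome, H3K27me3 coverage was higher in Δasf1 for 56.1% and lower for 28.5%, and H3 coverage was higher for 25.8% and lower for 55.2%.

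**Figure D5:**
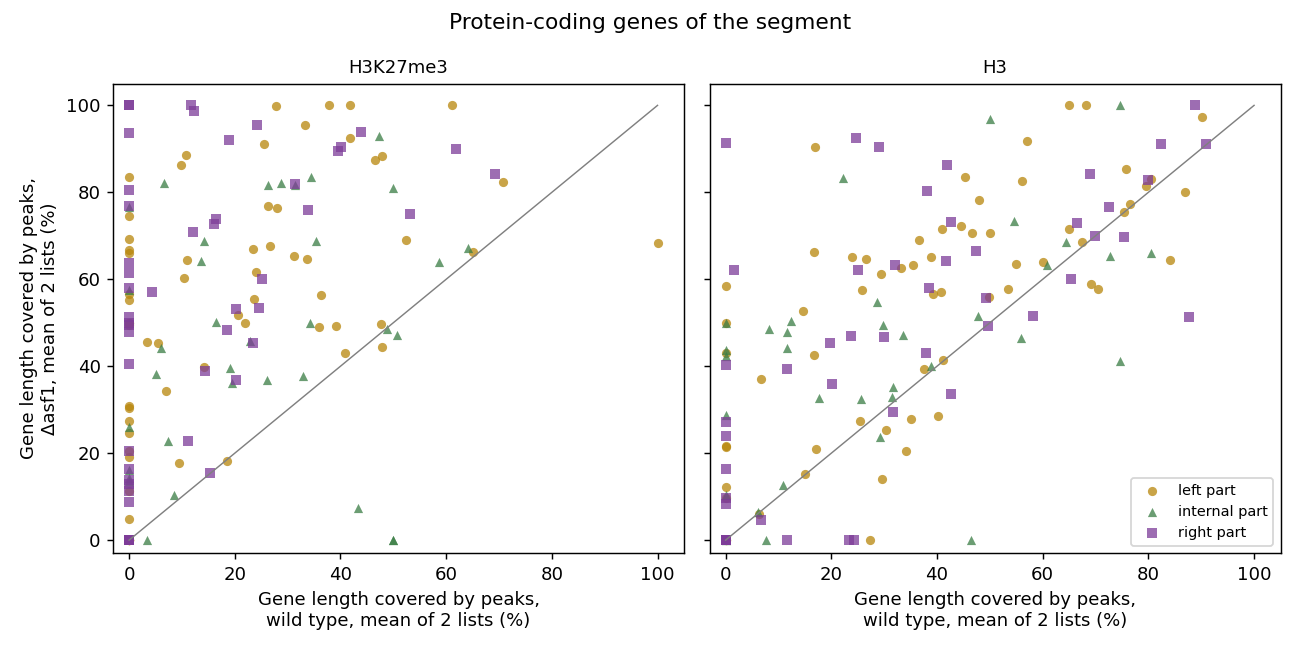
Share of the length of each of the 147 protein-coding genes covered by peaks in Δasf1 (y axis, mean of 2 lists, %) against the wild type (x axis, mean of 2 lists, %), for H3K27me3 and H3. Circles are genes of the left part, triangles of the internal part and squares of the right part, and the line marks equal coverage. For H3K27me3 126 genes lie above the line and 10 below it, and for H3 107 above and 29 below.

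A gene was called gained when at least 50% of it was covered in both Δasf1 lists and under 10% in both wild-type lists. This was so for 10 of 147 genes for H3K27me3 (6.80%, beside 1.62% genome-wide), of which 3 were in the left, 1 in the internal and 6 in the right part. No gene of the segment met the reverse rule (1.24% genome-wide). For H3, 2 genes were gained (1.36%, beside 0.243%) and 0 were lost (0.679% genome-wide). Among strong peaks only, with the median fold of each list as the limit, 1 H3K27me3 gene was gained. The rule asks less when a list is left out, and H3K27me3 then gave 24 genes without Δasf1 replicate 1, 16 without Δasf1 replicate 2, 30 without wild type replicate 1 and 17 without wild type replicate 2. H3 gave 6 genes without Δasf1 replicate 1 and 6 without wild type replicate 2.

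Gained for both antibodies was SMAC4_07819, named as the RNA-binding protein HRP1. Gained for H3K27me3 only were, among others, SMAC4_04374 and SMAC4_04375, SMAC4_04380 (amidophosphoribosyltransferase, which starts purine synthesis) and SMAC4_07823 (a syntaxin, of the family that fuses membrane vesicles). HRP1, the amidophosphoribosyltransferase and the syntaxin fall outside the rule for named genes and were chosen after their values had been seen.

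Genes for chromatin, replication and repair were represented by 6 members in the outer parts. At least 50% of the gene was covered by H3K27me3 peaks for 4 and 3 of 6 in Δasf1, against 1 and 0 of 6 in the wild type, and by H3 peaks for 4 and 2 of 6 in Δasf1, against 3 and 4 of 6 in the wild type. None was called gained. The shares of all 147 genes were 53.7% and 55.8% in Δasf1, against 15.0% and 13.6% in the wild type, for H3K27me3, so the group of 6 did not stand apart from the segment by these counts. Its members are described for what they are known to do with histones and DNA.

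SMAC4_05562 encodes Mcm2, a subunit of the replicative helicase that also binds histones. Its H3K27me3 coverage was 91.2% and 93.8% in Δasf1, against 64.9% and 18.9% in the wild type. Its H3 coverage was 84.5% and 44.3% in Δasf1, against 73.6% and 94.6% in the wild type, so that the groups overlapped for H3 and not for H3K27me3. MRC1 (SMAC4_05566), which holds the replication checkpoint at stalled forks, had H3K27me3 coverage of 92.9% and 98.1% in Δasf1, against 43.8% and 22.6% in the wild type. Its H3 coverage was 93.3% and 67.1% in Δasf1, against 81.0% and 92.9% in the wild type.

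The gene for a histone H1-binding protein, SMAC4_07816, was covered by H3K27me3 peaks to 100% and 100% in Δasf1, against 0% and 23.6% in the wild type. Subunit A of CAF-1 (SMAC4_04395), the chaperone that deposits H3-H4 received from ASF1 on new DNA, had 80.1% and 35.7% in Δasf1, against 0% and 0% in the wild type. Its H3 coverage was 77.1% and 25.8% in Δasf1, against 38.2% and 78.2% in the wild type, and replicates of one strain differed here more than the strains. A DNA repair endonuclease gene (SMAC4_05555) had 38.4% and 0% in Δasf1, against 0% and 0% in the wild type, and a helicase gene (SMAC4_04371) had 28.8% and 48.9% in Δasf1, against 0% and 28.6% in the wild type.

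The other groups, set from product names, went the same way. Of 10 genes for protein folding and turnover, 7 and 7 were covered by H3K27me3 peaks over at least 50% of their length in Δasf1, against 2 and 0 in the wild type. Among 9 genes of carbon, lipid and energy metabolism it was 6 and 8 in Δasf1, against 3 and 2 in the wild type. Among 9 genes for transport and membrane traffic it was 4 and 7 in Δasf1, against 0 and 1 in the wild type. For 8 genes of RNA processing and translation it was 5 and 6 in Δasf1, against 2 and 1 in the wild type, and for 8 genes of nucleotide and amino acid synthesis 4 and 4 in Δasf1, against 2 and 0 in the wild type. Of 5 transcription genes it was 1 and 2 in Δasf1, against 0 and 0 in the wild type. In every group more members passed 50% in each Δasf1 list than in the wild-type list of the same replicate, as among the genes of the segment in general, and no group was tested against the others.

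The overlap of the antibodies depended on the replicate. In the segment 81.6% and 64.1% of the H3K27me3 peak length lay in H3 peaks of the same replicate in Δasf1, against 64.5% and 49.7% in the wild type. In the left flank it was 66.3% and 29.3% in Δasf1, against 43.9% and 36.1% in the wild type. In the right flank it was 76.6% and 36.7% in Δasf1, against 74.7% and 63.9% in the wild type. In the internal part it was 84.6% in Δasf1 replicate 1 and 36.3% in Δasf1 replicate 2, against 48.5% and 39.9% in the wild type. Replicates shared 49.7% of their joint H3K27me3 peak length (Jaccard index) in Δasf1 and 20.2% in the wild type, and 47.0% and 40.9% for H3. In the left and right flanks the H3K27me3 index was 38.1% and 38.5% in Δasf1, against 38.4% and 18.3% in the wild type. The H3 index there was 17.3% and 32.5% in Δasf1, against 32.7% and 45.7% in the wild type. Both measures tend to rise with the covered share, on which the segment was chosen, so they do not measure agreement alone. For H3K27me3 the index was 57.3% in the left part, 36.0% in the internal part and 51.0% in the right part of Δasf1.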

How the data were processed

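Chromatin immunoprecipitation with antibodies against H3K27me3 and H3 was done in mycelium of Δasf1 and the wild type, 2 biological replicates each. The labels name fastp, Bowtie2 and MACS2 without versions. Settings and the use of the 8 input samples, which were not used here, are not given in the sources used here. The authors deposited 1 list of broad peaks per library, with 4 values a peak, a score, a fold enrichment (a ratio over local background), a −log10 p-value and a −log10 q-value. No peak of replicate 1 had a deposited −log10 q under 2.02, and minima reached 2.05, whereas replicate 2 went down to 1.00 (minima up to 1.03). This held in both strains, so values are given by replicate. The lists held 4401 to 6525 peaks and no read counts.

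Positions are counted from 1 in the assembly named in the lists (Sm_v04_wtN). Genes came from the RefSeq table of ASM3387043v1, and product names from the study's gene list, matched by earlier locus tag (64 of 65 grouped genes). The assembly names differ, and gene positions were used as given. No sequence was read.

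Peaks that overlapped by 1 bp were merged for covered length, and overlap meant 1 bp or more. Gene calls used 50% and 10% of gene length. The implied background is the Poisson mean that links fold and p-value of a peak when both signal and mean are raised by 1 before division. Calculations were checked on simulated data and used SciPy 1.17.1, pandas 2.3.3 and NumPy 2.4.6 under Python 3.11.15. For the background, simulated p-values came from the same formula with a single mean per peak. The fit of that formula to the deposited broad peaks was not tested. Figures were made in matplotlib 3.10.9.

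The segment, the gene groups and the alternatives were chosen with earlier results of these data known, and the limit at the median fold of each list was chosen after seeing the data, as were gene gains and width ratios as results with alternatives. Named regions were, per antibody and part, the 3 new regions, 500 bp or longer, that ranked first by the fold of the weaker replicate, and per antibody the 5 longest regions in all 4 lists. Named genes overlap these regions or belong to the chromatin, replication and repair group. Alternatives were cutoffs on q and fold, equal numbers of peaks, joining peaks within 1 kb, other overlap rules, a shortened segment, shorter flanks, each library left out and a replicate block.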

Additional observations from a re-analysis of the deposited data

Results flagged for a closer look

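The difference between strains in the internal part went opposite ways in the replicates, in all libraries concerned. H3K27me3 coverage was higher by 34.6 percentage points in Δasf1 within replicate 1, and the difference was -1.95 points within replicate 2. H3 coverage was likewise higher by 34.6 points in Δasf1 within replicate 1, with -7.90 points within replicate 2. The difference between replicates was not tested.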

How the results depend on the processing

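For H3K27me3 the excess of Δasf1 in the share of the segment covered, 27.43 points, was 25.40 at a common q-value, 24.28 for the upper 50% of peaks, 25.53 with equal numbers, 3.94 above the antibody's median fold and -2.11 above the median fold of each list (26.99 to 27.87 with 1 library left out). For H3, 14.32 points became 1.31 and -5.74 under the same fold limits (9.20 to 19.44). In the flanks the H3K27me3 difference of 0.048 points was -2.98, -4.46 and -3.36 under the limits on q and number, -1.21 and -1.61 under the fold limits, -0.325 with peaks joined and 11.25 with flanks of 200 kb (-2.61 to 2.70). The H3 difference of -7.84 points was 0.208 for the upper 50% and 2.35 above the antibody's median fold (-13.32 to -2.37). The mean number of new H3K27me3 peaks, 35, was 12 and 7.5 under the fold limits, 59 with 50% overlap and 54.5 against the same replicate only (30 to 60), and that for H3, 12.5, was 6 and 5.5, 35 and 22.5, and 22 with equal numbers (11 to 26). Kept H3K27me3 peaks, 85.0%, were 66.9% at a common q-value, 48.1% for the upper 50%, 14.4% and 19.2% under the fold limits and 71.3% with 50% overlap (78.1% to 95.4%). Kept H3 peaks, 79.5%, were 58.4%, 38.2%, 25.1% and 16.0%, and 61.4%, as well as 76.7% with equal numbers and 89.4% with the same replicate only (78.5% to 94.7%). Gained H3K27me3 genes, 10, were 0 and 1 under the fold limits (16 to 30), and gained H3 genes, 2, were 1 under both and 1 at a common q-value (2 to 6). The median width ratio for H3K27me3, 1.71 over both replicates, was 1.03 and 1.01 under the fold limits. Apart from fewer peaks or lists in a setting, the cause of these changes was not tested. Replicates share only a number here, with no batch named in the labels. A replicate block left the differences at 27.43 and 14.32 points in the segment and at 0.048 and -7.84 points in the flanks (exact permutation p = 1 for each flank). Since read totals are not known, counting error could not be estimated.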
